A study of Mus musculus with 4 samples.

Results

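The genes described here are Ros1 and 9 further receptor tyrosine kinase genes of epithelial cells (Egfr, Erbb2, Erbb3, Erbb4, Met, Fgfr2, Fgfr3, Mst1r and Ddr1), chosen by gene symbol from the 25759 symbols of the count table. All 10 had counts, and 9 passed the filter on low counts, Erbb4 being the exception. The set was built around Ros1 because its transcript was among those furthest below WT in this same comparison, so its difference between genotypes is given as a description without a test.

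Receptor tyrosine kinases span the cell membrane, bind a growth factor or matrix protein outside the cell, and pair up to phosphorylate each other and their adaptors inside it. The signal then runs mainly through the RAS and ERK cascade and through PI3K and AKT, the route by which growth factors reach the kinase mTOR. In the lung, FGFR2 is known to be needed for branching of the airway tree and for upkeep of alveolar type II cells, the cells that make surfactant. EGFR and its relatives, MET and ROS1 are best known there from human lung adenocarcinoma, in which mutated, amplified or fused forms of these genes drive growth.

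RNA was sequenced from alveolar type II cells of C57BL/6 mice aged 14 weeks. The mTOR Tg mice (2 libraries) are labelled Sftpc-mTOR transgenic and described as conditional for active mTOR, where Sftpc is the surfactant protein C gene of type II cells. The WT mice (2 libraries) were wild type. The labels and files used here do not state sex, cell isolation, induction of the transgene, or whether a library held 1 mouse or a pool, so the spread between libraries may be technical. The libraries held 21972124 and 20273396 counts for mTOR Tg replicates 1 and 2, and 18146693 and 19018785 counts for WT replicates 1 and 2.

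The label of the cells was checked against markers. Summed type II cell markers (11 genes, Sftpc among them) reached 105200 and 134500 CPM (counts scaled to the library total) in mTOR Tg. In WT they reached 130200 and 111800 CPM. Sftpc makes up most of each sum, and not all markers followed it. With TMM scaling, Slc34a2, Cxcl15, Abca3, Lamp3, Lpcat1 and Nkx2-1 lay below both WT libraries in mTOR Tg replicate 1. Sftpd lay above both there, and Sftpc, Sftpb, Sftpa1 and Napsa lay between them. Summed club cell markers (6 genes) were also high, at 156800 CPM in mTOR Tg replicate 1, above the type II sum of that library. They were at 54020 CPM in mTOR Tg replicate 2, and at 81600 and 87940 CPM in WT. Summed ciliated cell markers (7 genes) were 2857 CPM in mTOR Tg replicate 1 and 1288 CPM in replicate 2, against 1207 and 1416 CPM in WT. Summed red cell markers (5 genes) were 3235 and 1041 CPM in mTOR Tg replicates 1 and 2, against 2548 and 3683 CPM in WT. Summed alveolar type I cell markers (9 genes) were 2301 and 2167 CPM in mTOR Tg and 2024 and 1958 CPM in WT. The part of these other cells in the receptor kinase results was not tested. Immune markers were low but not absent. The 7 macrophage markers summed to 3.60 and 4.39 CPM in mTOR Tg and 5.57 and 3.42 CPM in WT, most of it Cd68, with C1qb at 0 counts in every library. Of 4 lymphocyte markers, Cd3e and Ms4a1 were at 0 counts in every library, and Cd79a had 7 counts in mTOR Tg replicate 2 alone. mTOR Tg replicate 1 stood apart from the rest, with a Pearson's r of 0.951 to 0.954 across genes to the other libraries, where those correlated with each other at 0.983 to 0.988. Genes with long transcripts were low in it. Among the 3282 tested genes with the longest transcripts (the top quartile, of at least 4654 bases), the median log2 difference from the WT mean was -0.55 in replicate 1 and 0.00 in replicate 2. Of the 9 tested members, 6 (Ros1, Egfr, Erbb2, Erbb3, Met and Mst1r) fall in that quartile and the other 3 in the quartile below it. Not all were low in replicate 1, where Erbb2 lay at 0.11 and Mst1r at 0.95 from the WT mean (log2). The part of transcript length in each member's level was not tested.

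Receptor kinases share a catalytic loop, the stretch around the aspartate that takes part in phosphate transfer. It is shown for 5 members the results turn on, because its protein sequence is alike in related kinases and its bases show how far the genes differ. The sequences are 24 bases from the longest coding transcript of each gene in GENCODE M21, 5′ to 3′, with the aspartate codon in capitals.
Ros1: cacaggGATctggcagctcggaat
Fgfr2: catcgaGATttggctgccagaaac
Met: cacagaGACttagctgcaagaaac
Erbb3: cataggGACcttgcgctccggaat
Ddr1: catcggGACctggccacccggaac
The aspartate codon was found in all 10 genes, mouse Erbb3 included. In this loop Ros1 differed from the other members at 4 to 9 of the 24 bases. Across the whole transcripts, the longest run of identical bases between Ros1 and another member was 16, and between any 2 of the 10 genes it was 22. Only these 10 genes were compared, and whether reads were assigned to the wrong gene was not tested.

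Ros1 encodes a large receptor, long regarded as an orphan, whose fused forms are oncogenes in human lung adenocarcinoma. The mouse protein has been linked to NELL2, a secreted signal of the male reproductive tract. The gene lies on the minus strand of chromosome 10, from 52044863 to 52195398 (RefSeq, GRCm38.p6, the assembly also called mm10). Its longest coding transcript in GENCODE M21 has 44 exons and 7401 bases. Ros1 had 88 and 131 counts in mTOR Tg, against 298 and 299 counts in WT. Scaled to library size with TMM factors (normalised CPM), this was 4.32 and 6.27 CPM in mTOR Tg and 16.4 and 15.1 CPM in WT. Both mTOR Tg libraries were low, with no overlap between genotypes.

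The counting error was small beside this gap. Ros1 was chosen for this gap, so the intervals and the rank given here describe it and are no test. On library totals, the 95% exact (Clopper-Pearson) intervals were 3.21 to 4.93 CPM and 5.40 to 7.67 CPM in mTOR Tg, against 14.6 to 18.4 CPM and 14.0 to 17.6 CPM in WT. These intervals cover counting error only. The log2 fold change from the edgeR fit was -1.57 (SE 0.27), and 0.233% of the tested genes had a lower one. Leaving out mTOR Tg replicate 2 gave -1.86, and leaving out replicate 1 gave -1.33.

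As a log2 difference from the WT mean, Ros1 lay at -1.84 in mTOR Tg replicate 1, where long transcripts read low, and at -1.31 in mTOR Tg replicate 2, where they did not. After the trend with transcript length and GC content was taken out of each library, Ros1 lay at -1.08 in replicate 1 and -1.30 in replicate 2, and its log2 fold change was -1.21 (SE 0.19). The 2 mTOR Tg libraries, which differed by 0.53 before this step, were then closer together. The part of transcript length in the Ros1 difference was not tested.

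The share of Ros1 among the receptor kinases was also compared within each library, which needs no scaling between libraries. Per 100 counts of Egfr, a gene with a still longer transcript, there were 45.1 and 41.6 counts of Ros1 in mTOR Tg and 122 and 101 in WT. Per 100 counts of Met, close to Ros1 in transcript length (6809 bases) and GC content (45.5% against 45.0%), there were 3.64 and 1.98 in mTOR Tg and 5.45 and 4.55 in WT. Ros1 was lower in both mTOR Tg libraries than in both WT libraries relative to each of the 8 other tested members, which follows in part from the low Ros1 counts shared by all 8 ratios.

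**Figure D1:**
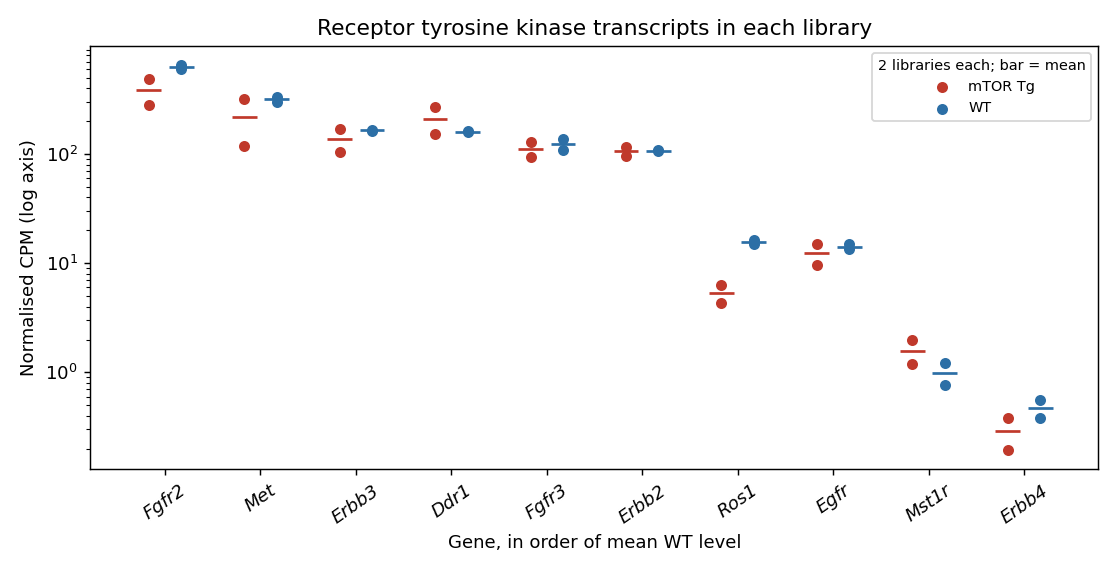
Normalised CPM (log axis) of the 10 receptor kinase genes in each library, mTOR Tg left of WT, with 1 point per library and a bar at the mean of 2. Ros1 is at 4.32 and 6.27 CPM in mTOR Tg and 16.4 and 15.1 CPM in WT, and the mTOR Tg points of most genes are spread further apart than the WT points.

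Fgfr2 encodes the receptor for FGF7 and FGF10, growth factors that mesenchymal cells send to the lung epithelium. Its gene is on chromosome 7 from 130162451 to 130266808. It was the most abundant of the set, at 282 and 488 normalised CPM in mTOR Tg and 650.0 and 600 CPM in WT. Both mTOR Tg libraries lay below both WT libraries, but the mTOR Tg pair was itself 0.79 apart on the log2 scale, where the WT pair was 0.12 apart. The log2 fold change was -0.70 (SE 0.31), or -0.62 (SE 0.22) after the length and GC step. It came to -1.15 when mTOR Tg replicate 2 was left out and to -0.36 when replicate 1 was. GENCODE M21 lists read-through transcripts under Fgfr2 that share 314 exonic bases with Ctbp2, so some reads could count for either gene. Splice forms of Fgfr2, which decide the ligands it binds, are pooled in these counts.

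Fgfr3, its relative on chromosome 5 (33721724 to 33737068), was at 128 and 93.1 CPM in mTOR Tg and 108 and 138 CPM in WT. The genotypes overlapped, and the log2 fold change was -0.16 (SE 0.25). Leaving out mTOR Tg replicate 1 gave -0.41, leaving out mTOR Tg replicate 2 gave 0.05, and leaving out WT replicate 2 gave 0.03, so its sign rests on single libraries. Part of an uncharacterised transcript, G630022F23Rik, lies on the opposite strand over 998 exonic bases of Fgfr3. It had 12 and 6 counts in mTOR Tg and 16 and 25 counts in WT, few beside the 1946 to 2741 counts of Fgfr3.

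Met and Mst1r encode the receptors of hepatocyte growth factor and of macrophage stimulating protein. Met (chromosome 6, 17463349 to 17573980) was at 118 and 317 CPM in mTOR Tg and 300.3 and 332 CPM in WT. Only mTOR Tg replicate 1 was low. Its log2 fold change of -0.54 (SE 0.46) became -1.42 when mTOR Tg replicate 2 was left out and 0.00 when replicate 1 was. Mst1r (chromosome 9, 107906858 to 107920383) had few counts, 40 and 25 in mTOR Tg and 14 and 24 in WT. That is 1.96 and 1.20 normalised CPM in mTOR Tg and 0.768 and 1.21 CPM in WT, with overlap between genotypes. Its log2 fold change was 0.66 (SE 0.46), ranging between 0.26 (mTOR Tg replicate 1 left out) and 1.03 (WT replicate 2 left out).

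The 4 EGFR family genes encode receptors that work as mixed pairs. EGFR and ERBB4 bind ligands, ERBB2 is the partner without a known ligand, and ERBB3 binds neuregulins and is known in human cells as a weak kinase that signals through its partner. Egfr (chromosome 11, 16752203 to 16913907) was at 9.56 and 15.1 CPM in mTOR Tg and 13.4 and 15.0 CPM in WT. Erbb2 (chromosome 11, 98412484 to 98437716) was at 116 and 94.9 CPM in mTOR Tg and 109 and 106 CPM in WT. Erbb3 (chromosome 10, 128567523 to 128589635) was at 103 and 170.4 CPM in mTOR Tg and 165 and 164 CPM in WT. In each of these 3 genes the genotypes overlapped, and mTOR Tg replicates 1 and 2 lay on opposite sides of the WT mean.

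The log2 fold change was -0.20 (SE 0.29) for Egfr, -0.03 (SE 0.20) for Erbb2 and -0.26 (SE 0.28) for Erbb3. Without mTOR Tg replicate 2 it was -0.57 for Egfr, 0.11 for Erbb2 and -0.67 for Erbb3. Without mTOR Tg replicate 1 it was 0.09 for Egfr, -0.18 for Erbb2 and 0.05 for Erbb3. After the length and GC step the sign of Egfr turned to 0.23 (SE 0.17), and that of Erbb2 to 0.01, as it also did with upper quartile scaling. Erbb4 (chromosome 1, 68031884 to 69108576) had 4 and 8 counts in mTOR Tg and 7 and 11 counts in WT, too few to be tested. This was 0.196 and 0.383 normalised CPM in mTOR Tg and 0.384 and 0.556 CPM in WT. Its 95% exact intervals ran from 0.0496 to 0.778 CPM over the mTOR Tg libraries and from 0.155 to 1.03 CPM over the WT libraries, so a difference of severalfold was not detectable at this depth.

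Ddr1 encodes a receptor that collagen activates. The gene is on chromosome 17 from 35681567 to 35704741. It was at 267 and 153 CPM in mTOR Tg and 158 and 162 CPM in WT. Only mTOR Tg replicate 1 was high, and replicate 2 lay below both WT libraries. Ciliated and club cell markers were also high in replicate 1, and their part in the Ddr1 level was not tested. The log2 fold change of 0.40 (SE 0.30) became 0.74 when mTOR Tg replicate 2 was left out and -0.061 when replicate 1 was. An antisense gene, Gm4577, overlaps 216 exonic bases of Ddr1, and the labels do not say whether reads were counted by strand, so the genes cannot be fully told apart.

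**Figure D2:**
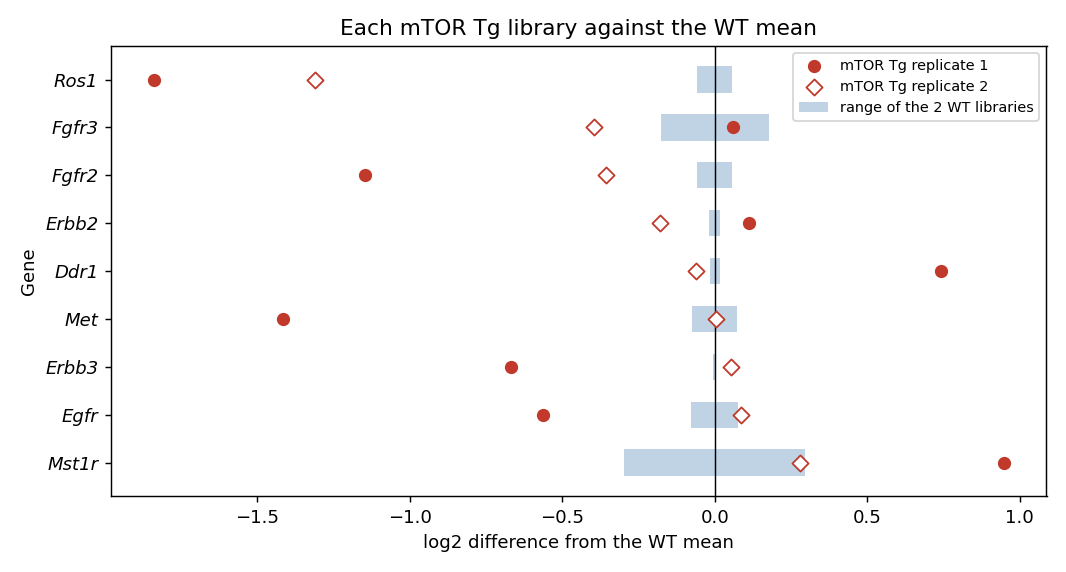
Difference of each mTOR Tg library from the WT mean (log2 scale) for the 9 tested members, with filled circles for replicate 1, open diamonds for replicate 2 and a shaded bar for the range of the 2 WT libraries. Ros1 lies at -1.84 and -1.31, whereas Met lies at -1.41 in replicate 1 and 0.01 in replicate 2.

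Of the 9 tested members, 2 (Ros1 and Fgfr2) had both mTOR Tg libraries below both WT libraries and 0 had both above. Over all tested genes 17.0% lay below and 17.6% above in this way, and 34.6% in either direction. Since the members were chosen with this comparison known, nothing is read from the count. In the edgeR quasi-likelihood test with Benjamini-Hochberg adjustment, 0 members and 0 of 13306 genes were called (0%), with 327 genes at an unadjusted p under 0.05. limma-voom called 0 genes, and DESeq2 called 12 (0.0902%). Ros1 was the only member among those 12, and it had been chosen for its low value here. Leaving out 1 library moved edgeR's count to 333 genes (mTOR Tg replicate 1), 6273 (mTOR Tg replicate 2), 8 (WT replicate 1) or 12 (WT replicate 2). Met, Erbb3, Egfr, Fgfr2 and Ros1 lay below the WT mean in mTOR Tg replicate 1, and Ddr1, Mst1r, Erbb2 and Fgfr3 above it. The median difference of the 9 members was -0.56 in replicate 1 and -0.06 in replicate 2. Their median log2 fold change was -0.20, against 0.01 over all genes tested and -0.25 over the quartile with the longest transcripts. The members' median became -0.57 when mTOR Tg replicate 2 was left out and -0.061 when replicate 1 was.

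**Figure D3:**
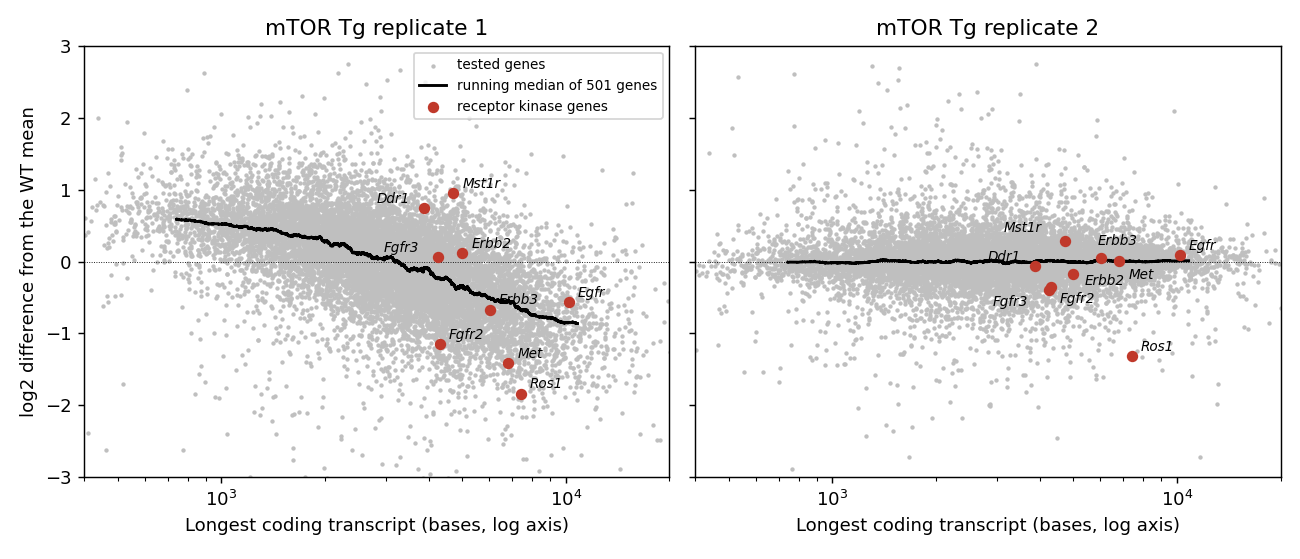
Difference of mTOR Tg replicate 1 (left) and replicate 2 (right) from the WT mean (log2 scale) against the length of the longest coding transcript (log axis), with tested genes in grey, their running median in black and receptor kinase genes in red. A few genes beyond the axis limits are not drawn. In replicate 1 the running median falls with length, and in replicate 2 it is flat near 0 while Ros1 lies at -1.31.

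Levels were compared between genes per kilobase of the longest coding transcript. In WT the order was Fgfr2 at 145 ± 8.27 normalised CPM per kilobase (SD, n = 2 libraries for every value of this order), Met at 46.4 ± 3.32, Ddr1 at 41.3 ± 0.675, Fgfr3 at 29.1 ± 5.03, Erbb3 at 27.3 ± 0.120, Erbb2 at 21.4 ± 0.387, Ros1 at 2.13 ± 0.119, Egfr at 1.39 ± 0.104, Mst1r at 0.210 ± 0.0665 and Erbb4 at 0.0390 ± 0.0101. Fgfr3 and Erbb3 overlapped in WT, and no other neighbours in this order did. In mTOR Tg, Ros1 at 0.715 ± 0.187 came after Egfr at 1.21 ± 0.382, and Ddr1 at 54.3 ± 20.8 came before Met at 32.0 ± 20.6 (SD, n = 2 libraries each). The Met and Ddr1 levels overlapped in mTOR Tg, whereas those of Ros1 and Egfr did not. The labels do not name the annotation used for counting, and the length sets these levels. With the median length of the coding transcripts instead, Egfr at 4.82 lay above Ros1 at 2.19 in WT, while the order of the other 8 genes was the same.

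The genes whose pattern over the 4 libraries was nearest to that of Ros1 were looked for among all tested genes. Nearness was the Euclidean distance between profiles of log2 CPM, each centred on its own mean. The nearest 5 were Gm12166 (distance 0.20), Frem2 (0.22), Hecw2 (0.24), Bcl2a1d (0.28) and Fbn2 (0.29). Frem2, a basement membrane protein of the Fraser complex, was at 2.21 and 3.54 normalised CPM in mTOR Tg and 7.79 and 7.12 CPM in WT. Hecw2, a ubiquitin ligase, was at 0.687 and 1.15 CPM in mTOR Tg and 2.63 and 2.27 CPM in WT. Fbn2, a microfibril protein, was at 1.28 and 1.44 CPM in mTOR Tg and 4.88 and 4.19 CPM in WT. These 3 have transcripts of 11041 to 12348 bases, longer than that of Ros1, and Gm12166 and Bcl2a1d rest on 3 to 17 counts in a library.

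**Figure D4:**
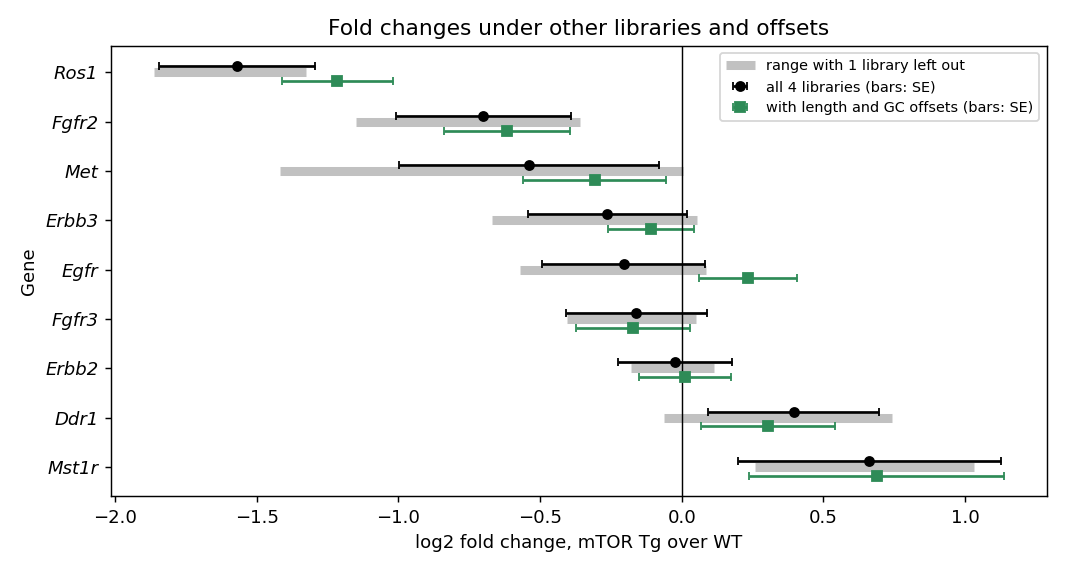
Log2 fold change of mTOR Tg over WT for the 9 tested members, with all 4 libraries (black circles, bars give the SE), with length and GC offsets (green squares, bars give the SE) and as the range when 1 library is left out (grey). The Ros1 range runs from -1.86 to -1.33, and the range of Met from -1.42 to 0.00.

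The ligands of these receptors came next. Of 25 ligand genes, 14 were tested and 0 were called in either direction, with 4 above and 4 below in both mTOR Tg libraries. Over all tested genes, 17.6% lay above and 17.0% below in this way. Nothing is read from this count or from those of the later lists. Their median log2 fold change was 0.08 (0.10 after the length and GC step). Nell2 had 0 counts in every library, which allows up to 0.137 to 0.148 CPM in mTOR Tg and 0.158 to 0.165 CPM in WT. Hgf had 2 and 1 counts in mTOR Tg and 1 and 6 in WT, and Fgf7 2 and 4 counts in mTOR Tg and 1 and 0 in WT. Both ligands are products of mesenchymal cells.

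Mst1, which encodes the ligand of the Mst1r receptor, was at 8.14 and 5.31 CPM in mTOR Tg and 2.80 and 2.93 CPM in WT, a log2 fold change of 1.23 (SE 0.32). Both mTOR Tg libraries were high. Fgf18, a ligand of FGFR3 among others, was at 0.883 and 0.622 CPM in mTOR Tg and 0.384 and 0.505 CPM in WT. Btc, which encodes betacellulin, a ligand of EGFR and ERBB4, was at 7.94 and 8.85 CPM in mTOR Tg and 11.1 and 11.5 CPM in WT. Fgf2 was at 0.539 and 0.766 CPM in mTOR Tg and 0.768 and 1.06 CPM in WT. Fgf1, the ligand gene with the most WT counts among the growth factors listed, was at 145 and 168 CPM in mTOR Tg and 213 and 179 CPM in WT, and was named after its values were seen.

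Proteins that release or activate these ligands were all tested, and 0 of 10 were called. In 2 both mTOR Tg libraries lay above WT and in 0 below, beside 17.6% and 17.0% of all tested genes. The median log2 fold change was 0.12 (-0.03 after the length and GC step). Spint2, an inhibitor of the proteases that activate HGF, was at 962 and 680.0 CPM in mTOR Tg and 673 and 663 CPM in WT. St14, which encodes the protease matriptase, was at 238 and 177 CPM in mTOR Tg and 171 and 173 CPM in WT. In both genes replicate 2 of mTOR Tg lay only just above WT.

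Other receptor tyrosine kinase genes numbered 48 in the list, of which 32 were tested and 0 called. In 7 of them both mTOR Tg libraries lay below WT and in 1 above, beside 17.0% and 17.6% of all tested genes. The median log2 fold change was -0.16 (-0.05 after the length and GC step). Kdr, which encodes a VEGF receptor best known from endothelial cells, was at 51.9 and 34.98 CPM in mTOR Tg and 79.3 and 84.4 CPM in WT. Epha7, an ephrin receptor gene, was at 16.7 and 30.0 CPM in mTOR Tg and 39.1 and 43.5 CPM in WT. Ephb3 was at 83.7 and 79.8 CPM in mTOR Tg and 75.9 and 75.1 CPM in WT. The 7 endothelial markers summed to 79.2 and 71.8 CPM in mTOR Tg and 123 and 132 CPM in WT, and 5 had both mTOR Tg libraries below WT. Kdr makes up most of that sum, and 3 of these 5 (Kdr, Tie1 and Tek) are also among the 7 receptor kinase genes below WT. The other 4 markers (Pecam1, Cdh5, Cldn5 and Egfl7) summed to 24.3 and 27.7 CPM in mTOR Tg and 33.1 and 33.8 CPM in WT, with both mTOR Tg libraries below WT in 2 of them. These 2 were Pecam1 and Cdh5. In WT, Pecam1 was at 9.66 and 8.84 normalised CPM, beside the 79.3 and 84.4 CPM of Kdr. Which cells the Kdr counts came from was not tested, nor was the part of endothelial cells in the receptor kinase results. Fewer cells of a type and less RNA per cell cannot be told apart in such samples.

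Adaptors and cascade kinases carry the signal from the receptor inward. All 25 were tested and 0 were called. In both mTOR Tg libraries 5 lay below and 2 above WT, beside 17.0% and 17.6% of all tested genes. The median log2 fold change was -0.18 (-0.05 after the length and GC step). Crkl, an adaptor, was at 15.3 and 35.4 CPM in mTOR Tg and 41.4 and 41.9 CPM in WT. Frs2, the docking protein of FGF receptors, was at 16.8 and 41.3 CPM in mTOR Tg and 43.8 and 46.3 CPM in WT. In both genes the gap was mainly in mTOR Tg replicate 1. Src, a kinase that many receptors activate, was at 110.0 and 102 CPM in mTOR Tg and 94.4 and 90.8 CPM in WT. Frs3, a relative of Frs2, was at 10.004 and 8.09 CPM in mTOR Tg and 6.31 and 7.88 CPM in WT.

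Negative regulators end or damp the signal. Of 24 tested, 0 were called. In both mTOR Tg libraries 8 lay below and 2 above WT, beside 17.0% and 17.6% of all tested genes. The median log2 fold change was -0.15 (-0.02 after the length and GC step). Spry1, a feedback inhibitor of FGF receptor signalling, was at 166 and 166 CPM in mTOR Tg and 233 and 218 CPM in WT. Its log2 fold change was -0.44 (SE 0.19), and both mTOR Tg libraries were equally low. Socs4, which promotes breakdown of EGFR, was at 12.8 and 28.8 CPM in mTOR Tg and 31.4 and 33.1 CPM in WT. Its gap was mainly in mTOR Tg replicate 1, and its log2 fold change of -0.63 became -0.21 after the length and GC step. The phosphatase gene Ptpn6, whose product is known to act on ROS1 in the mouse epididymis, was at 33.5 and 27.9 CPM in mTOR Tg and 23.98 and 24.6 CPM in WT. Ptpn2, another phosphatase gene, was at 23.0 and 23.4 CPM in mTOR Tg and 18.3 and 19.8 CPM in WT.

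Genes known to respond to ERK activity formed the last list. ERK activity itself was not measured, so their levels are not read as its output. Of 13 tested, 0 were called. In both mTOR Tg libraries 4 lay above and 4 below WT, beside 17.6% and 17.0% of all tested genes. The median log2 fold change was -0.04. It turned to 0.10 after the length and GC step. Egr1 was at 167 and 148 CPM in mTOR Tg and 288 and 239 CPM in WT, a log2 fold change of -0.74 (SE 0.21). Fos was at 559 and 448 CPM in mTOR Tg and 684 and 718 CPM in WT. Both encode immediate early transcription factors, and both mTOR Tg libraries were low for each. Myc was at 5.93 and 5.55 CPM in mTOR Tg and 3.40 and 3.18 CPM in WT, a log2 fold change of 0.80 (SE 0.26). Ier3 was at 51.9 and 28.3 CPM in mTOR Tg and 21.5 and 25.8 CPM in WT.

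**Figure D5:**
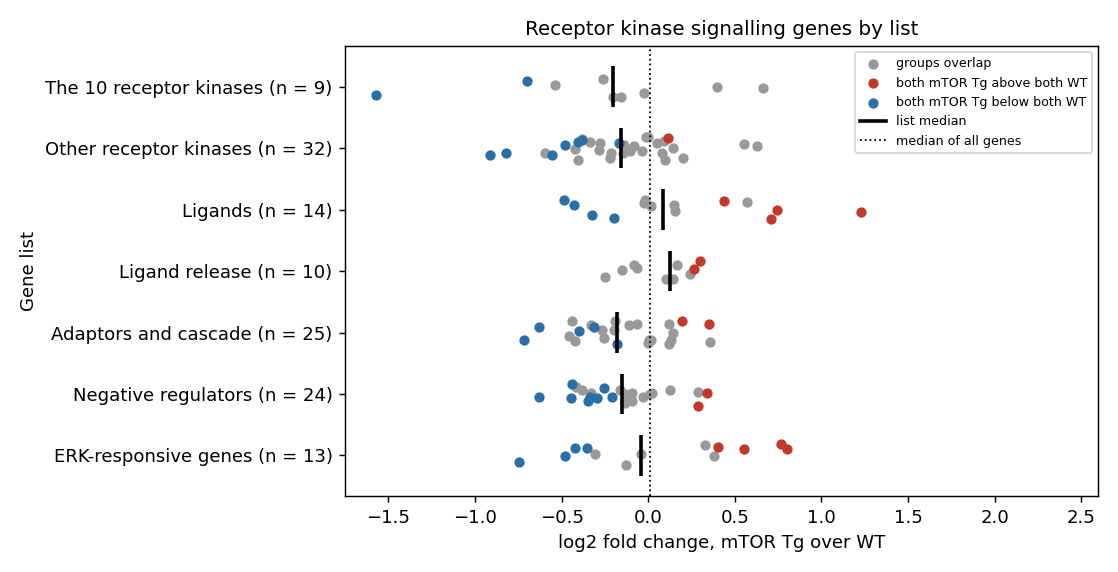
Log2 fold change of mTOR Tg over WT for each tested gene of 7 lists, coloured red where both mTOR Tg libraries lie above both WT libraries and blue where both lie below. Solid bars mark list medians, from -0.20 for the 9 tested members of the set to 0.12 for ligand release genes, and the dotted line marks the median of all genes at 0.01.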

How the data were processed

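The authors deposited 1 table of raw read counts by gene symbol, covering all 4 libraries. The submitters' processing notes name HISAT2, edgeR and build mm10, with no role or order. No source used here states the counting program, the annotation or the versions. Columns were tied to samples through the names in the labels. From the deposited counts, genes were kept with filterByExpr (minimum count 10), leaving 13306 genes with 99.9% of counts. Libraries were scaled by TMM (factors 0.928 to 1.04) and mTOR Tg was compared with WT by edgeR 4.0.16's quasi-likelihood test (R 4.3.3), with genotype as the only term and Benjamini-Hochberg adjustment over all genes tested (threshold 0.05). The SE of a log2 fold change is its size over the square root of F. Log2 CPM used a prior count of 2. With 2 libraries against 2, an exact two-sided permutation test of a single value cannot go below 0.333. The 95% exact intervals and the limit for a count of 0 (3 counts) take in counting error alone, since no molecular identifiers are mentioned that would tell copies of a molecule apart.

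Transcript length and GC content came from the longest coding transcript in GENCODE M21 (GRCm38), matched by symbol for 98.7% of tested genes. The length and GC step fitted a smooth trend (mgcv 1.9.3) of each library's log2 deviation and entered it as an offset. Alternatives were other scalings and filters, edgeR's robust and legacy settings, voom from limma 3.58.1, DESeq2 1.42.0, the replicate number as a block, and leaving out each library. Code was tested on simulated counts. The members and gene lists were chosen with earlier results of these data known. Members were always named. For each list the 2 tested genes with the largest positive and the 2 with the largest negative log2 fold change were named, among those whose genotypes did not overlap. The 5 tested genes nearest to Ros1 in pattern were also named. Nell2, Hgf, Fgf7 and Fgf1 fall outside this rule and were picked for their role, with their values seen.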

Additional observations from a re-analysis of the deposited data

How the results depend on the processing

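The log2 fold change of Ros1 was negative under all 16 alternatives. It was -1.21 with length and GC offsets, with or without the replicate block. It was -1.86 to -1.33 with 1 library left out, and -1.62 to -1.55 under other scalings, filters and tools. Ros1 was chosen for its low value in these same libraries, so its sign was nearly fixed beforehand and is no support. The number of genes called was 0 with the other scalings, filters and edgeR options, limma-voom and length and GC offsets alone. It was 12 with DESeq2 (9 higher, 3 lower), 37 with the replicate block (22 higher, 15 lower), 1 with length and GC offsets and the replicate block, and 8 to 6273 with 1 library left out (333 without mTOR Tg replicate 1, 6273 without mTOR Tg replicate 2, 8 without WT replicate 1 and 12 without WT replicate 2). Fits without a library of 1 genotype assume that the lone library varies like the other genotype. The number of members called was 1 by DESeq2, 1 with the replicate block and 0 to 6 with 1 library left out (6 without mTOR Tg replicate 2). Since the set was chosen on this comparison, these counts describe the settings and are no test of the members. The members' median log2 fold change ran from -0.57 to -0.061 with 1 library left out. The replicate numbers share no stated source, and the deviations of same-numbered libraries correlated at 0.0708 across genes, so the block was not used as a pairing. Library size scaling moved the median of all genes to -0.05. Counts limit Erbb4 and Mst1r most, at 4 to 40 counts in a library. The median coding transcript length, an alternative chosen after the data were seen, changed the order of Ros1 and Egfr alone in WT.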

Other observations

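The genes beside Ros1 on chromosome 10 were looked at after the other values were seen. Within 500 kb there were 10 other protein-coding genes, of which 3 were tested. Gopc, the neighbour to which ROS1 is fused in some human tumours, was at 17.9 and 33.1 normalised CPM in mTOR Tg and 31.1 and 37.4 CPM in WT, with overlap between genotypes. Dcbld1, which lies between Ros1 and Gopc, was at 9.12 and 9.71 CPM in mTOR Tg and 9.11 and 9.50 CPM in WT. Nus1, an enzyme subunit of dolichol synthesis, was at 52.7 and 65.7 CPM in mTOR Tg and 58.9 and 61.3 CPM in WT. None of the 3 had both mTOR Tg libraries below WT. Over all tested genes 17.0% did, so nothing is read from these 3 genes.

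Among ligands of the EGFR family, Areg was at 33.1 and 23.3 CPM in mTOR Tg and 17.1 and 17.4 CPM in WT, a log2 fold change of 0.71. Nrg1, a ligand of ERBB3 and ERBB4, was at 7.31 and 7.90 CPM in mTOR Tg and 4.66 and 6.57 CPM in WT. Fgf9 had 1 and 1 counts in mTOR Tg and 8 and 13 counts in WT. Dusp6, a phosphatase gene that ERK activity induces, was at 41.4 and 34.6 CPM in mTOR Tg and 53.4 and 48.7 CPM in WT. Etv5, a transcription factor gene of type II cells downstream of FGF signalling, was at 427 and 892 CPM in mTOR Tg and 906 and 728 CPM in WT, with overlap. These genes were picked after their values were seen. Fgf9 had too few counts to be tested, and the other 4 were not called in edgeR.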
